A study of Mus musculus with 6 samples.

Results

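Fibroblasts of embryonic mouse skin with transcripts of several canonical Wnt target genes were described across 6 single-cell RNA libraries. A cell counted as Wnt-active when it had at least 4 unique molecular identifiers (UMIs) in sum over Lef1, Sp5, Nkd1 and Axin2. It also had to hold at least 15 UMIs of the fibroblast collagens Col1a1, Col1a2 and Col3a1, at most 3 of the keratins Krt5 and Krt14, and none of the endothelial genes Pecam1 and Cdh5 or of the dermal condensate genes Sox2, Sox18 and Foxd1. Cells with under 500 genes or over 10% mitochondrial UMIs were dropped. Of the 40653 cells kept, 22594 passed the fibroblast gates, and 4064 of these were Wnt-active (18.0% of gated fibroblasts, 10.0% of kept cells). The remaining 18530 gated cells, with 0 to 3 UMIs over the 4 Wnt genes, are called other fibroblasts. Because the cells were chosen by their own transcripts, the 14 genes of the rule are given as descriptions with no test.

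The libraries came from dorsolateral and flank skin of CD1 embryos, 3 to 4 embryos pooled per library, dissociated with trypsin and sorted for cells that excluded the dye DAPI. Control libraries, with the genotype label WT, numbered 2 for embryonic day 13.5 (E13.5) and 2 for E14.5. Loss-of-function (LOF) libraries numbered 1 per stage and carried PDGFRalphaCreER(Lo);beta-catfl/fl;mTmG: a tamoxifen-inducible Cre recombinase under a driver active in dermal fibroblasts, floxed alleles of beta-catenin, and a reporter that switches from membrane tdTomato to membrane eGFP after recombination. Tamoxifen was given once by oral gavage at E11.5. The protocol lists 2 dose levels without saying which library had which, so the LOF libraries may differ in dose as well as stage. It names only the LOF genotype, so genotype and drug cannot be told apart. The library was the unit of replication, since pooled embryos carry no mark of their own. Below, "in library order" means E13.5 control replicates 1 and 2, E14.5 control replicates 1 and 2, E13.5 LOF and E14.5 LOF.

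Canonical Wnt signalling stabilises beta-catenin, which enters the nucleus and acts with transcription factors of the TCF and LEF family. Several of its target genes encode brakes on the pathway, so their transcripts serve as a readout of signalling. In embryonic skin, Wnt ligands from the epidermis act on the fibroblasts just beneath it, the upper dermis, before hair follicle placodes and dermal condensates form. Deeper fibroblasts give rise to the lower dermis and fascia and show less of this response.

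Library totals ranged from 53461986 to 86446575 UMIs. Wnt-active cells were deeper than other fibroblasts in every library, and a deeper cell passes a fixed UMI threshold more easily. Median UMIs per cell were 12133.5 and 9518 in E13.5 control replicate 1 and 8932 and 7735 in E14.5 LOF. The gap was largest in E13.5 LOF, at 15744 and 10161, where Wnt-active cells were the deepest of any library. Pairs of libraries shared 44 to 101 kept barcodes, and 11 barcodes were Wnt-active in more than 1 library. E14.5 LOF and replicate 1 of the E14.5 controls stood apart: Gm42418, an RNA that overlaps ribosomal sequence, reached 1024 and 1827 CPM (UMIs scaled to a common total per cell set) in their Wnt-active cells against 53.8 to 73.4 in the other 4, and the histone gene Hist1h1b reached 1443 and 1140 against 30.1 to 45.3. The reporters went against the WT label. In control replicate 2 of E13.5 and E14.5, 76.8% and 60.9% of Wnt-active cells held an eGFP UMI, against 4.44% and 6.62% in replicate 1, and tdTomato was found in 23.0% to 98.8% of keratinocytes in all 6 libraries. Esr1, whose estrogen-receptor domain is part of CreER fusions, stood at 47.9 and 68.1 CPM in Wnt-active cells of the LOF libraries and at 1.79 to 2.72 in the controls. The labels do not say that replicates came from separate litters, so p-values measure only the spread between these libraries, which may be technical.

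Nkd1, a feedback inhibitor that binds Dishevelled, supplied the most UMIs of the 4 Wnt genes, with 46.3% to 56.0% of them per library. Its level in Wnt-active cells was 294, 378, 287, 398, 228 and 301 CPM in library order, and in other fibroblasts 46.3, 50.2, 47.8, 76.3, 22.8 and 35.0. Sp5, a zinc-finger repressor induced by Wnt, stood at 123, 141, 95.8, 131, 56.9 and 95.9 CPM in Wnt-active cells. All 4 genes lay below the controls of their stage in E13.5 LOF, where Lef1, the transcription factor that pairs with beta-catenin, was at 71.5 CPM and Axin2, a scaffold of the beta-catenin destruction complex, at 52.1 CPM. The rule chose cells on these genes at a fixed UMI count, which a deeper cell passes at a lower CPM. Wnt-active cells of E13.5 LOF had a median of 15744 UMIs, against 12133.5 and 10288.5 in the E13.5 controls. The part of depth, and of the cells with muscle markers described below, in these levels was not tested. The 4 genes lie on chromosome 8 (Nkd1, 88521354 to 88594884), chromosome 2 (Sp5, 70474923 to 70477729), chromosome 3 (Lef1, 131110471 to 131224356) and chromosome 11 (Axin2, 108920349 to 108950783) of GRCm38. Signal over the 4 genes was spread across them: in E13.5 control replicate 1, 22.8% of Wnt-active cells held UMIs of all 4 genes and 4.98% of only 1. The median sum per cell was 5 to 7 UMIs and the highest 19 to 33.

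The core motif read by TCF and LEF factors, CTTTGAT on either strand (ATCAAAG on the other), was searched for in RefSeq windows of 300 bases around gene starts, 250 before and 50 after, on GRCm38.p6. It was present in 1225 of 32851 windows (3.73%), and in 1 of 7 windows of the 4 Wnt genes, that of Sp5. The stretch upstream of the Sp5 start, chr2:70474673-70474922 on the plus strand, is shown because it carries that match, in capitals. The match is a description of these letters and not a measured binding site.
Sp5: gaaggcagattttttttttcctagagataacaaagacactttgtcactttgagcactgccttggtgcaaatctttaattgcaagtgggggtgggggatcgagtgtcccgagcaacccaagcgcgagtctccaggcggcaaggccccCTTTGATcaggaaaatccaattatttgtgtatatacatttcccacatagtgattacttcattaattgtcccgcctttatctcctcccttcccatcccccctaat

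The label upper dermal was checked with genes outside the rule. Crabp1, a retinoic acid binding protein of the early dermis, and Twist2, a transcription factor of the dermal lineage, were scored after every cell was thinned to 5000 UMIs. A Crabp1 UMI was found in 91.2%, 97.2%, 96.5%, 99.1%, 65.5% and 91.8% of Wnt-active cells in library order, against 46.4% to 80.8% of other fibroblasts and 6.83% to 32.5% of keratinocytes, which should lack the gene. Twist2 was found in 90.4%, 96.1%, 95.7%, 98.8%, 57.9% and 89.9% of Wnt-active cells, 39.0% to 80.3% of other fibroblasts and at most 8.0% of keratinocytes. Both markers therefore went with the label in 5 libraries, and E13.5 LOF was lower in both.

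In E13.5 LOF, 22 of 173 Wnt-active cells (12.7%) had no UMI of Crabp1 or Twist2, against 1 to 20 cells in each control library and 21 of 443 (4.74%) in E14.5 LOF. Cells with at least 2 UMIs over 6 muscle markers made up 53 of the 173 (30.6%, 95% exact binomial interval 23.9 to 38.1), 18 of them among the 22 that lacked both dermal markers, and 44 of the 53 held Msc, a transcription factor of muscle precursors. The same share was 9.06%, 3.18%, 2.37%, 1.59% and 7.0% in the other 5 libraries in library order. The summed level of the 6 muscle markers ran from 23.4 to 169 CPM in Wnt-active cells of the controls and stood at 255 (E13.5 LOF) and 78.7 (E14.5 LOF), and in other fibroblasts it ran from 23.4 to 77.9. The gene fits and the shares of Wnt-active cells were repeated without the muscle-marker cells. The eGFP shares, the levels of the rule genes, the classes of Wnt UMIs and the correlations were not, so for E13.5 LOF they include these cells. With the markers of every other lineage scored, 117 of the 173 held at least 2 such UMIs, as did 1560 of all 4064 Wnt-active cells. Without such cells and those among the top 5% of UMIs, 56 of the 173 remained. Of the 4412 gated fibroblasts of E13.5 LOF 1613 remained. Keratinocyte markers summed to 21.5 to 65.0 CPM in Wnt-active cells and pericyte markers to 13.5 to 42.9, against 49.4 to 160 in other fibroblasts, and red-cell markers varied from 31.0 CPM in E14.5 LOF to 3718 in E14.5 control replicate 2. The 5 melanoblast markers summed to 28.5, 14.3, 9.73, 4.68, 17.1 and 43.1 CPM in Wnt-active cells in library order and to 5.89, 6.85, 9.32, 10.1, 5.11 and 19.6 in other fibroblasts, higher in Wnt-active cells of 5 libraries, and their part in the results was not tested. Pecam1, Cdh5, Sox2, Sox18 and Foxd1 are at 0 by the rule.

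The threshold cut a continuous range. In E13.5 control replicate 1, the 230 cells with 4 Wnt UMIs and the 291 cells with 3 had Crabp1 at 2131 and 1651 CPM, Twist2 at 619 and 500, and Dlk1, an inhibitory Notch ligand of immature fibroblasts, at 2368 and 3086. Cells with 0 Wnt UMIs had Crabp1 at 385 and Dlk1 at 4711.

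Wnt-active cells made up a smaller share of gated fibroblasts in each LOF library than in both controls of its stage. At E13.5 the share was 24.5% (95% exact binomial interval 23.2 to 25.8) and 20.1% (18.7 to 21.5) in the controls and 3.92% (3.37 to 4.54) in LOF. At E14.5 it was 33.6% (31.9 to 35.3) and 22.1% (20.6 to 23.7) in the controls and 10.1% (9.2 to 11.0) in LOF. The intervals cover counting error only, and the gap between control replicates was larger than that error at both stages. No test over libraries was made, since the share follows from genes the rule used and each LOF group is 1 library. With cells thinned to 5000 UMIs and a threshold of 2 UMIs, the shares were 26.4%, 27.7%, 36.0%, 35.6%, 4.27% and 14.9% in library order, so the control replicates lay closer together and the 2 LOF libraries remained below them. Without the muscle-marker cells the E13.5 LOF share was 3.06% and the E14.5 LOF share 9.77%. Fewer Wnt-active cells and fewer Wnt transcripts per cell cannot be told apart by a UMI threshold.

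**Figure D1:**
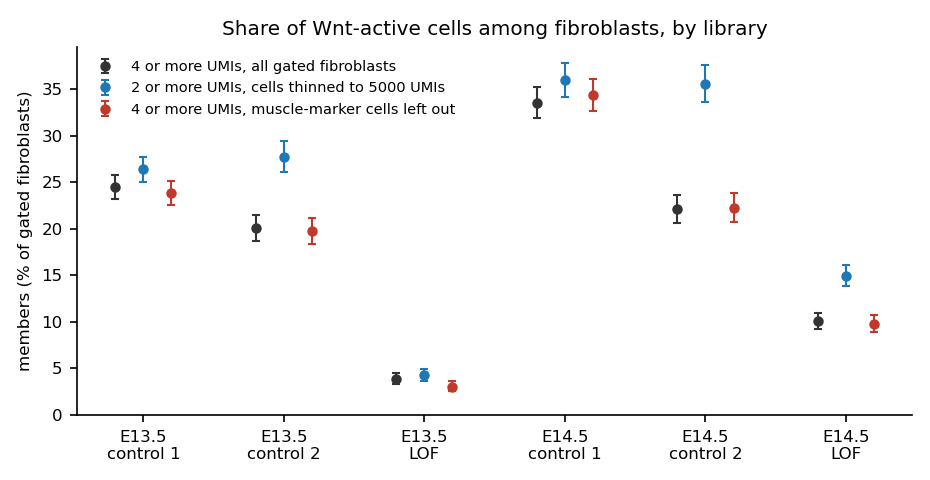
Share of Wnt-active cells among gated fibroblasts (vertical axis, percent) in each of the 6 libraries, with 95% exact binomial intervals: black for all gated cells, blue for cells thinned to 5000 UMIs at a threshold of 2, and red without muscle-marker cells. Both LOF libraries, at 3.92% and 10.1%, sit below both controls of their stage.

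By design of the LOF genotype, eGFP marks cells in which recombination took place. What eGFP marks in the controls labelled WT was not tested. Before thinning, a tdTomato UMI was found in 5.25%, 2.58%, 20.4% and 1.44% of Wnt-active cells of the controls in library order. In keratinocytes of the same libraries the shares were 98.8%, 94.2%, 23.0% and 60.6%. In control replicate 2 of both stages, where eGFP was common, Wnt-active cells held it more often than other fibroblasts; with cells thinned to 5000 UMIs the shares were 53.2% and 37.5% at E13.5, a difference of 15.7 points (95% interval 11.3 to 20.1), and 46.0% and 30.8% at E14.5, a difference of 15.2 points (10.5 to 19.9). In E13.5 LOF the order was the opposite, with 26.9% of Wnt-active cells and 43.0% of other fibroblasts, a difference of -16.1 points (-22.7 to -8.61). In E14.5 LOF the shares were 56.9% and 54.5%, a difference of 2.41 points (-2.74 to 7.47) that counting error covers. Before thinning the E14.5 LOF difference was 5.52 points (0.595 to 10.3), and at 2 or more eGFP UMIs 8.56 (3.55 to 13.5), both beyond counting error. With Wnt-active set at 3 or 6 Wnt UMIs it was 5.02 (0.77 to 9.16) and 7.0 (-0.236 to 13.8). Keratinocytes held an eGFP UMI in 0.333% to 2.5% of thinned cells. In control replicate 1 of E13.5 and E14.5, where keratinocytes were at 0.5% and 0.333%, Wnt-active cells were at 1.83% and 3.28%. The intervals treat cells as independent draws within a library, so these differences compare cells of single libraries.

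For the reverse shares, Wnt-active meant at least 2 Wnt UMIs after thinning, a different set of cells from the 4 UMIs before thinning used above. By that count 3.53% of fibroblasts with an eGFP UMI in thinned E13.5 LOF cells were Wnt-active and 4.81% of those without. The corresponding shares were 15.9% and 13.7% in E14.5 LOF, 35.0% and 22.7% in E13.5 control replicate 2, and 45.7% and 30.3% in E14.5 control replicate 2. The share of Wnt-active cells in E13.5 LOF was thus low with and without an eGFP UMI. A recombined cell can lack such a UMI, so these shares do not separate recombined from other cells. In E13.5 LOF, 47.8% of other fibroblasts held one before thinning and 43.0% after. Ctnnb1, the floxed gene, stood at 206, 207, 198, 207, 209 and 224 CPM in Wnt-active cells in library order. The reads come from the 3′ end of the transcript, which lies outside floxed exons, so this level checks nothing about the deletion.

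**Figure D2:**
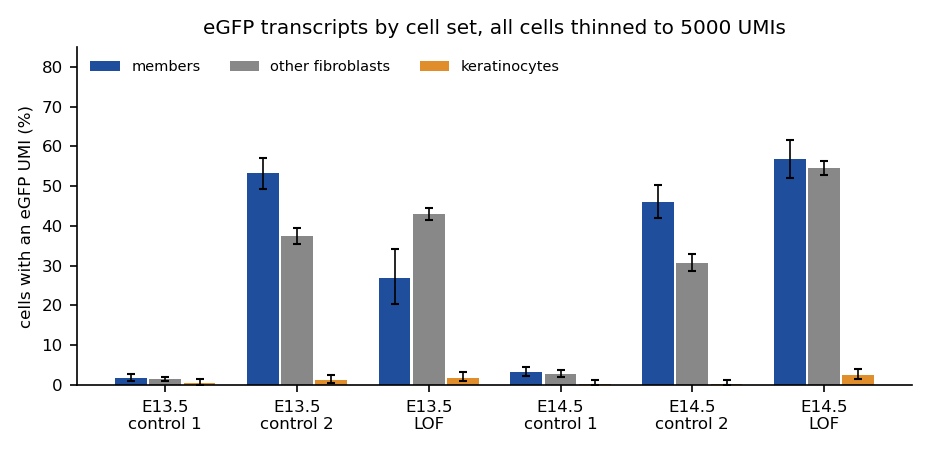
Percent of cells with an eGFP UMI in Wnt-active cells, other fibroblasts and keratinocytes of each library, all cells thinned to 5000 UMIs, with 95% exact binomial intervals. Wnt-active cells exceed other fibroblasts in both control replicate 2 libraries and lie below them in E13.5 LOF.

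Counts summed per library over Wnt-active and over other fibroblasts were compared within libraries with edgeR's quasi-likelihood test. This compares cell sets that were split by their own transcripts, so it describes what goes with the split. Of 14423 genes tested, 5768 differed at an adjusted p under 0.05 (40.0%), 2969 higher (20.6%) and 2799 lower (19.4%) in Wnt-active cells, and the median log2 difference over all genes was close to 0. In all 6 libraries alike, 17.4% of genes were higher and 19.8% lower. All counts of members of a gene list are to be read against these shares. Of 113 calls named or examined, 102 held under every alternative fit, and Bambi, Ctnnb1, Dkk2, Egr1, Fgf10, Fos, Fzd2, Pdgfra, Ptch1, Rarg and Wnt4 lost the call in at least 1.

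Secreted inhibitors of Wnt signalling split into opposite directions, with 4 of 11 higher, 4 lower and a median log2 difference of -0.29. Notum, an enzyme that strips the lipid from Wnt proteins, was at 57.9, 62.8, 27.6, 30.3, 32.3 and 28.4 CPM in Wnt-active cells in library order and at 4.75, 4.58, 2.94, 6.81, 0.754 and 1.56 in other fibroblasts. It was 12.4-fold higher (log2 difference 3.64, SE 0.38, edgeR adjusted p = 0.00066), with no overlap between the sets. Dkk1, which blocks the Lrp co-receptors, was at 49, 73.2, 82.6, 89.2, 21.0 and 75.2 CPM against 12.7, 14.4, 22.9, 30.4, 2.43 and 16.0, a log2 difference of 2.10 (SE 0.17, edgeR adjusted p = 6.5e-05). Wif1 and Sfrp5, which bind Wnt ligands, also rose, by log2 differences of 2.16 and 2.65.

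Sfrp2, another ligand-binding inhibitor, went the other way. It was at 131, 90.2, 36.6, 34.8, 245 and 47.9 CPM in Wnt-active cells and at 668, 490, 199, 187, 805 and 296 in other fibroblasts, 4.95-fold lower (log2 difference -2.31, SE 0.12, edgeR adjusted p = 4.2e-06). Each library showed the same order, although the level in Wnt-active cells of E13.5 LOF exceeded that in other fibroblasts of the E14.5 controls. Sfrp1 and Dkk2 were also lower, by log2 differences of -1.59 and -1.81.

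Of 21 Wnt feedback and target genes outside the rule, 12 were higher and 4 lower, with a median of 0.53. Besides Notum, Dkk1 and Wif1, the rises held Tcf7, a TCF factor that is itself a target, Nkd2, the paralog of Nkd1, Kremen1, a Dkk co-receptor, and Apcdd1, a membrane inhibitor of Wnt. Tcf7 was at 34.5, 8.99, 49.6, 10.5, 23.3 and 50.9 CPM in Wnt-active cells against 6.34, 1.94, 10.8, 3.93, 2.09 and 6.15 in other fibroblasts (log2 difference 2.52, SE 0.24, edgeR adjusted p = 0.00014). Its level was low in replicate 2 of both stages. Nkd2 and Kremen1 were higher by 1.28 and 1.34 on the log2 scale, and Apcdd1, at 0.97 to 11.2 CPM in Wnt-active cells, by 1.43. The falls held Dkk2, Dact1, Bambi and Kank1, of which Dact1, a Dishevelled-binding antagonist, had a log2 difference of -1.39.

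Of 19 genes for Wnt ligands, R-spondins and Wnt secretion, 5 were higher and 4 lower (median 0.14). Wnt10a, a ligand of the canonical pathway, was at 2.86 to 5.69 CPM in Wnt-active cells and at 0.586 to 1.58 in other fibroblasts, a log2 difference of 2.23 (SE 0.22, edgeR adjusted p = 2.2e-05). Wnt6, Wnt4 and Wnt11 were higher by 1.06, 0.94 and 0.55, and Wls, which escorts ligands to the cell surface, by 0.28. Wnt2 was lower, with a log2 difference of -1.96, and Rspo2, an amplifier of Wnt reception, with one of -2.27 at levels of 0 to 1.62 CPM in Wnt-active cells. Wnt5a, the prevalent non-canonical ligand of mesenchyme, did not pass the test at -0.18 (edgeR adjusted p = 0.13).

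Of 20 Wnt receptor genes, 3 were higher and 9 lower (median -0.18). Fzd10 and Fzd3, receptors of the Frizzled family, and Ror2, a receptor for Wnt5a, were higher by 1.05, 0.39 and 0.45 on the log2 scale. Gpc3, a glypican of the cell surface, showed the largest fall among those named, -1.37, followed by the co-receptor Lrp6 at -0.35 and Fzd2 at -0.28. Of 22 genes for beta-catenin partners and the destruction complex, 4 were higher and 4 lower. TCF factors differed in direction: Tcf7l2 was at 31.2, 24.3, 35.6, 31.1, 64.7 and 47.0 CPM in Wnt-active cells against 85.4, 81.5, 109, 72.1, 182 and 143 in other fibroblasts, a log2 difference of -1.51 (SE 0.06, edgeR adjusted p = 1.6e-07). Tcf7l1, often a repressor of targets, was lower with -0.48, and Ctnnb1 was slightly higher with 0.22 (edgeR adjusted p = 0.028).

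The upper dermis list held 7 rises and 4 falls among 17 genes (median 0.43). Crabp1 (chromosome 9, 54764748 to 54773110) was at 2729, 3676, 4031, 5288, 1489 and 3339 CPM in Wnt-active cells and at 704, 910, 1302, 2544, 343 and 1017 in other fibroblasts, 3.4-fold higher (log2 difference 1.76, SE 0.15, edgeR adjusted p = 0.00017). Twist2 was at 785, 910, 870, 1229, 457 and 778 CPM against 261, 338, 353, 601, 125 and 247, 2.82-fold higher (log2 difference 1.49, SE 0.11, edgeR adjusted p = 2.6e-05). Both were lowest in E13.5 LOF in both cell sets. Prdm1, a repressor that marks upper dermal progenitors, Runx1, a transcription factor, Zic1, another, and Col7a1, the anchoring-fibril collagen, were higher by 2.18, 1.17, 1.20 and 1.78 on the log2 scale. The falls were Ebf1, Ebf2, Dpp4 and Ntn1. Ebf1, a transcription factor of mesenchymal and fat lineages, was at 23.5, 18.0, 66.6, 45.5, 41.1 and 55.7 CPM against 183, 132, 311, 229, 291 and 372, 6.18-fold lower (log2 difference -2.63, SE 0.11, edgeR adjusted p = 8.8e-07).

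Genes of the lower dermis and fascia fell, 13 of 15, with none higher and a median log2 difference of -1.75. Dlk1 was at 1803, 1685, 1320, 1587, 2070 and 1497 CPM in Wnt-active cells and at 4286, 3991, 3037, 3706, 5105 and 4115 in other fibroblasts, 2.40-fold lower (log2 difference -1.26, SE 0.04, edgeR adjusted p = 6.3e-08). Every level in Wnt-active cells was below every level in other fibroblasts. Ly6a, the progenitor antigen Sca1, Mfap5, a microfibril protein, Dpt, the matrix protein dermatopontin, and Igf1, a growth factor, were lower with log2 differences of -3.91, -3.18, -2.36 and -2.08. Ptn, a heparin-binding growth factor outside that list, was at 464, 504, 211, 194, 693 and 340 CPM against 2565, 2847, 1599, 1413, 3433 and 1934 (log2 difference -2.58, edgeR adjusted p = 1.7e-07).

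**Figure D3:**
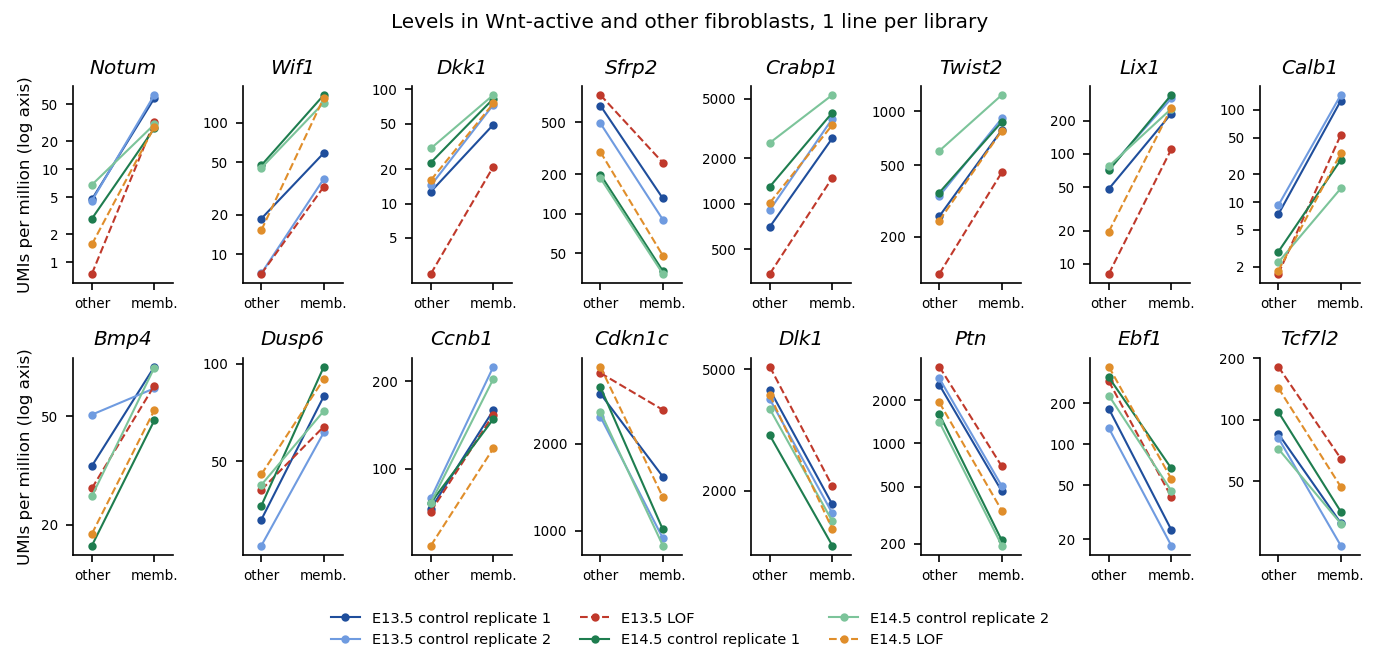
Level of 16 genes in other fibroblasts and in Wnt-active cells, in CPM on log axes, with 1 line per library (dashed for LOF). Lines rise for Notum, Wif1, Dkk1, Crabp1, Twist2, Lix1, Calb1, Bmp4, Dusp6 and Ccnb1, and fall for Sfrp2, Cdkn1c, Dlk1, Ptn, Ebf1 and Tcf7l2 in all 6 libraries.

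Some genes of the dermal condensate, the cluster of fibroblasts below a hair placode, were also higher. Cells with a UMI of Sox2, Sox18 or Foxd1 had been left out, but a condensate cell in which none was counted would remain. The part of such cells was not tested. Of 21 condensate genes outside the rule, 11 were higher and 4 lower (median 0.79). Bmp4, a signal from condensate to epidermis, was at 76.2, 63.5, 48.4, 75.7, 65.0 and 52.8 CPM in Wnt-active cells against 32.9, 50.8, 16.7, 25.5, 27.2 and 18.5 (log2 difference 1.24, SE 0.17, edgeR adjusted p = 0.0013). Bcl11b, a transcription factor, Inhba, an activin subunit, Cdkn1a, a cell cycle inhibitor, and Bdnf, a neurotrophin, were higher by 1.69, 1.56, 1.55 and 1.28. Fgf10 and Bmp3 were lower, with -1.31 and -2.70. Among 10 genes of the hedgehog response, Ptch1, the receptor, Gli1, an effector, and Gli3 were higher and Cdon was lower. Gli1 was higher by 0.79.

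FGF response genes were higher in 7 of 11 with none lower (median 0.51). Spry1, of the same list, was called lower with matched total UMIs, with thinned cells and without muscle-marker cells. Dusp6, a phosphatase induced by FGF signalling, was at 79.4, 61.4, 97.8, 71.5, 64.0 and 89.7 CPM against 33.1, 27.6, 36.6, 42.4, 40.9 and 45.7, with no overlap (log2 difference 1.06, SE 0.10, edgeR adjusted p = 4.7e-05). Etv4 and Etv5, transcription factors downstream of FGF, were higher by 1.76 and 0.84, and the receptors Fgfr1 and Fgfr2 by 0.56 and 1.0. Among 17 genes for BMP ligands and response, 4 were higher and 5 lower (median 0.03). The rises paired Bmp4 and Msx2 with the BMP antagonists Grem1 and Nog, higher by 2.06 and 1.37, and the falls held Bmp5 at -2.11. Among 12 retinoic acid genes, 2 were higher, Crabp1 and the receptor Rarg, and 5 were lower (median -0.91). Among those lower were the synthesis enzymes Aldh1a2 and Aldh1a3 at -2.17 and -1.93 and the retinol transporter Stra6 at -1.22.

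Matrix genes outside the rule were lower in 15 of 26 and higher in 1 (median -0.60). The exception was Fbln1, a fibulin, at 408, 454, 359, 470, 279 and 387 CPM against 211, 194, 177, 285, 152 and 168 (log2 difference 1.02, SE 0.07, edgeR adjusted p = 1.4e-06). Postn, Thbs2, Col12a1 and Fn1, proteins of the interstitial matrix, were lower with -1.97, -2.42, -1.46 and -0.87. The rule asks for collagen UMIs in both sets alike.

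Cell cycle genes were higher. All 19 G2 and M phase genes passed the test, with a median of 1.04, and 15 of 18 S phase genes did so with a median of 0.47. Ccnb1, the mitotic cyclin, was at 159, 224, 148, 203, 153 and 117 CPM against 73.0, 79.2, 76.4, 76.5, 71.3 and 54.4 (log2 difference 1.22, SE 0.06, edgeR adjusted p = 3.4e-07). Wnt-active cells also had more UMIs than other fibroblasts. With both sets matched on total UMIs the G2 and M median was 0.76, and with cells thinned to 5000 UMIs it was 0.66, and all 19 genes were again called in each. Cdkn1c, the inhibitor p57, was lower at 1539, 944, 1012, 890, 2614 and 1307 CPM against 2972, 2476, 3130, 2574, 3501 and 3680 (log2 difference -1.22, SE 0.18, edgeR adjusted p = 0.0026). Cell cycle inhibitors as a list were mixed, with 3 of 9 higher and 2 lower.

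Body-region transcription factors were split, 5 of 22 higher and 4 lower (median 0.14), with Hoxd9 higher by 1.40 and Meox2, of the somite lineage, lower at -2.93. Of 6 PDGF genes, Pdgfra was higher by 0.36 and Pdgfd and Pdgfrb were lower (median 0.22). Without muscle-marker cells 5 of these genes were tested, 1 higher and 4 lower (median -1.13). Genes induced by dissociation and stress were lower in 9 of 15 and higher in 1 (median -0.57), with Jun at -0.74.

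The largest rises of well-expressed genes included several with no part in the lists. Calb1, a calcium-binding protein, was at 125, 144, 28.6, 14, 53.4 and 33.7 CPM in Wnt-active cells against 7.36, 9.21, 2.90, 2.23, 1.68 and 1.81 in other fibroblasts, 15.8-fold higher (log2 difference 3.98, SE 0.26, edgeR adjusted p = 4.6e-05). Lix1 was at 232, 318, 343, 257, 110 and 261 CPM against 48.1, 73.3, 70.7, 77.2, 8.15 and 19.7 (log2 difference 2.61, SE 0.35, edgeR adjusted p = 0.0022). In both genes the other fibroblasts of the LOF libraries were below those of the controls of their stage. Casz1, a zinc-finger factor, Serpinc1, antithrombin, and Nrgn, a calmodulin-binding protein, were higher by 2.91, 2.87 and 2.83 on the log2 scale.

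Levels changed by steps along the summed Wnt UMIs rather than only at the threshold. In thinned cells of E13.5 control replicate 1, Crabp1 was at 533 CPM in cells with 0 Wnt UMIs and at 3610 in those with 6 or more, and Dkk1 at 8.54 and 70.1. Over the same range Dlk1 went from 4583 to 1606 CPM, Sfrp2 from 781 to 65.0 and Top2a, a mitotic topoisomerase, from 105 to 269. In E13.5 LOF, where only 9 cells had 6 or more, Crabp1 was at 338, 420, 1083, 1477 and 3007 CPM for 0, 1, 2, 3 and 4 to 5 UMIs. It lay below both E13.5 controls in each of these classes.

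**Figure D4:**
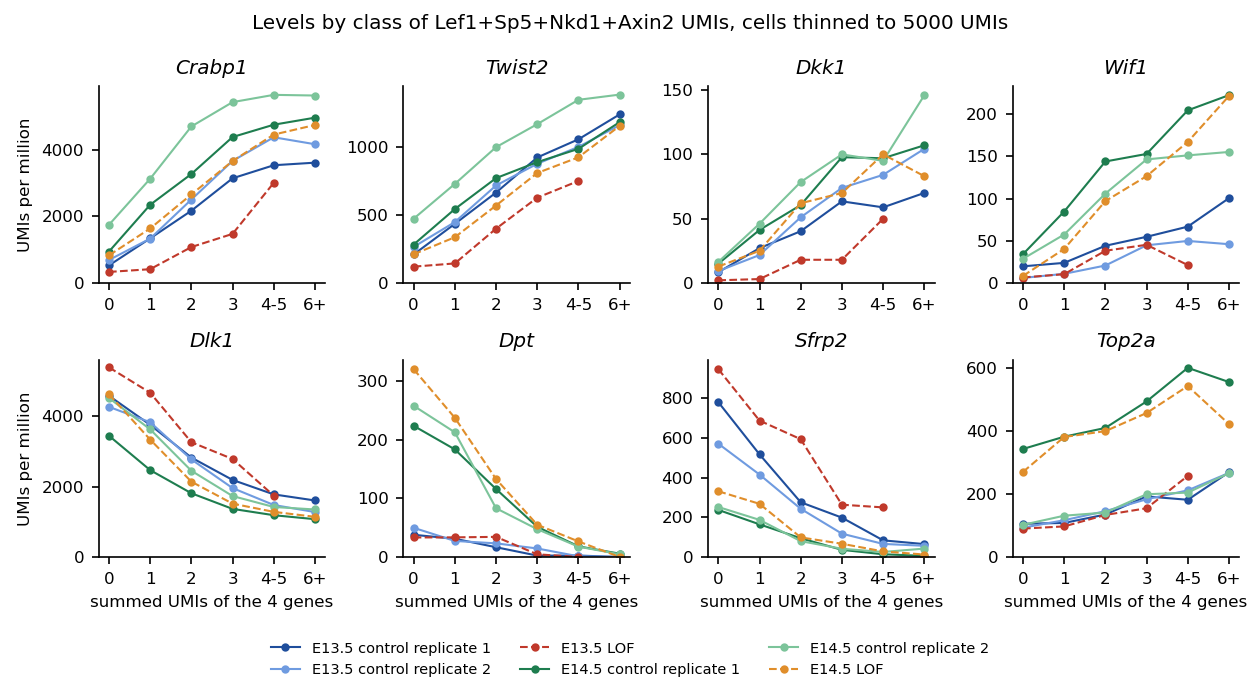
Level of 8 genes (CPM) by class of summed Lef1, Sp5, Nkd1 and Axin2 UMIs per cell, with 1 line per library and all cells thinned to 5000 UMIs. Classes under 20 cells are not drawn, so E13.5 LOF ends at 4 to 5 UMIs. Crabp1, Twist2 and Dkk1 are higher at the upper end than at 0 in every library, and Dlk1, Dpt and Sfrp2 lower.

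Likeness to the summed Wnt UMIs was measured by Spearman correlation across thinned cells within each library and averaged over the 6 libraries (20210 cells, 6644 genes). Cells of a library share its depth and preparation, so the values describe these libraries and carry no p. Crabp1 and Twist2 led with means of 0.44 and 0.43, followed by Pth1r, the parathyroid hormone receptor, at 0.35, Tcf4, a helix-loop-helix factor, at 0.33, and Bcl11b and Irx3 at 0.32 each. The lowest were Ptn at -0.41, Cdkn1c and the imprinted RNA H19 at -0.40, and Dlk1 at -0.39. For each of these 10 genes the value was nearest to 0 in E13.5 LOF: 0.04 for Crabp1 against 0.41 to 0.61 in the other 5 libraries, and 0.09 for Twist2 against 0.37 to 0.56. Before thinning, 69.7% of gated fibroblasts of E13.5 LOF had 0 Wnt UMIs, against 26.6% to 41.1% in the controls and 57.9% in E14.5 LOF. The part of these ties in the low values was not tested.

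Wnt-active cells of the E14.5 controls were next compared with those of the E13.5 controls (2 libraries against 2). Of 12370 genes, 93 passed edgeR's test (0.752%), 58 higher (0.469%) and 35 lower (0.283%) at E14.5, and the median log2 difference over all genes was 0.04. The hedgehog receptor Ptch1, itself a target of the pathway, was at 2.36 and 2.04 CPM at E13.5 and at 52.9 and 34.8 at E14.5 (log2 difference 4.31, SE 0.34, edgeR adjusted p = 0.022). Gli1 went from 3.96 and 2.04 to 19.7 and 25.8 CPM (log2 difference 2.91, SE 0.42, edgeR adjusted p = 0.048). Both thus rose, 2 of 10 hedgehog genes with none lower (median 0.64). The LOF libraries, outside this test, had Ptch1 at 0.97 CPM at E13.5 and 45.7 at E14.5.

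Egfl6, a basement membrane protein, was at 48.2 and 45.1 CPM at E13.5 and 447 and 417 at E14.5, 9.40-fold higher (log2 difference 3.23, SE 0.24, edgeR adjusted p = 0.022). Mef2c, a transcription factor, and Cav1, the caveolar coat protein, rose by 3.51 and 2.92 on the log2 scale, Shox2, a homeobox factor, by 2.78, and Col6a3, a matrix collagen, by 2.25. Sfrp5 rose by 4.37, the sole gene called among 10 secreted Wnt inhibitors. Of 20 condensate genes, 3 rose (Ptch1, Gli1 and Fgf10) and Enpp2 fell (median 0.86), and of 16 upper dermis genes 2 rose, Cyp26b1, which degrades retinoic acid, and Col7a1 (median 0.73). Cyp26b1 was at 0.831 and 0.272 CPM at E13.5 and at 14 and 7.30 at E14.5. Stra6, which brings retinol into the cell, fell by 4.15 on the log2 scale.

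Among the falls, Cpe, a carboxypeptidase, was at 78.9 and 78.3 CPM at E13.5 and 7.33 and 6.56 at E14.5 (log2 difference -3.48, SE 0.26, edgeR adjusted p = 0.022). Acta2 and Myl9, of the contractile apparatus, fell by 2.97 and 2.67, Igfbp4, which binds IGF, by 2.51, Foxp1, a forkhead factor, by 2.34 and Calb1 by 2.65 on the log2 scale. None of 21 Wnt feedback and target genes, 18 S phase genes or 19 G2 and M genes passed the test, with medians of 0.45, -0.03 and 0.07. At an unadjusted edgeR p under 0.05 there were 10, 1 and 3 of them, and DESeq2 called 5, 0 and 1. Of 14 dissociation and stress genes edgeR called 1, Junb, higher at E14.5 (9 at an unadjusted p under 0.05, median 1.05), and DESeq2 called 6, all higher; the part of tissue handling in the stage results was not tested. Krtdap, a keratinocyte differentiation gene, also passed, at 1.66 and 0.272 CPM at E13.5 and 66.3 and 119 at E14.5. It was at 52.5 and 114 CPM in other fibroblasts and 532 and 586 in keratinocytes of the E14.5 controls, and the part of free RNA in it was not tested.

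The count of stage genes depended on the libraries used. Leaving out replicate 1 of the E14.5 controls gave 26 genes and leaving out replicate 2 gave 1552, while the fits that left out replicate 1 or 2 at E13.5 gave 300 and 338. In the smallest of these sets, 12 of the 33 named calls were kept, among them Ptch1, Egfl6, Cav1, Shox2, Col6a3, Cpe, Myl9 and Calb1.

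**Figure D5:**
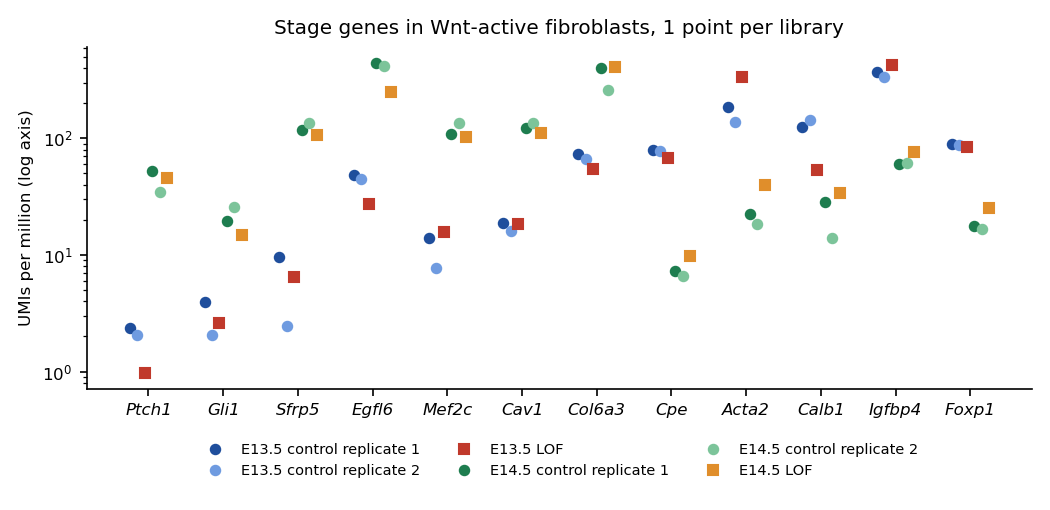
Level of 12 genes in Wnt-active cells (CPM, log axis), with 1 point per library and LOF libraries as squares. For each gene the 2 E14.5 controls lie on the same side of the 2 E13.5 controls, and each LOF library lies nearer to the controls of its own stage than to the other stage for Ptch1, Egfl6 and Cpe.

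Between LOF and control libraries, with stage as a covariate, 1 of 12262 genes passed edgeR's test in Wnt-active cells (0.00816%). That gene was Esr1 (log2 difference 4.66, SE 0.25, edgeR adjusted p = 0.0034), and edgeR called 0 genes without E13.5 LOF (158 at an unadjusted p under 0.05) and 0 without E14.5 LOF (388). At an unadjusted p under 0.05 there were 503 genes (4.10%), and DESeq2 called 15 (0.122%). The median log2 difference over all genes was 0.02. With control replicate 2 of both stages left out, 98 genes passed, and without muscle-marker cells 1 did.

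Among 17 upper dermis genes none passed edgeR's or DESeq2's test (5 at an unadjusted edgeR p under 0.05), the median log2 difference was -0.09, and without muscle-marker cells it was 0.06. The difference was -0.83 for Crabp1 (SE 0.26, edgeR adjusted p = 0.90) and -0.70 for Twist2 (SE 0.25, edgeR adjusted p = 0.90), and both had the lowest level in E13.5 LOF. Ctnnb1 had a difference of 0.05 (SE 0.16, edgeR adjusted p = 0.96). Thy1, a surface glycoprotein of fibroblasts, was at 56.4, 84.2, 202, 257, 20.7 and 80.8 CPM in library order, below both controls of each stage (log2 difference -1.67, edgeR adjusted p = 0.90). Pdgfa, a ligand for Pdgfra, was at 30.2, 18.7, 16.7, 15.0, 113 and 33.0 CPM, above them at both stages (log2 difference 1.67, edgeR adjusted p = 0.90). DESeq2 called Pdgfa higher in LOF.

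A description without a test counted genes whose 2 LOF values both lay above both controls of their stage, 1936 of all genes (15.8%), or both below, 1873 (15.3%). Of the 19 G2 and M genes 8 lay below and 0 above. Of 13 lower dermis genes 8 lay above and 2 below, and of 21 Wnt feedback genes 4 above and 2 below. None of these list genes passed the adjusted test of edgeR or DESeq2, and at an unadjusted edgeR p under 0.05 there were 0, 4 and 3 in the same order (3, 3 and 2 without muscle-marker cells).

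Whether the difference between Wnt-active and other fibroblasts changed with stage was tested as an interaction over all 6 libraries. Of 14423 genes, 1277 passed (8.85%), 567 with a positive interaction (3.93%) and 710 with a negative one (4.92%). The median interaction over all genes was close to 0. A positive value means a higher level in Wnt-active cells, relative to other fibroblasts, at E14.5 than at E13.5. Egfl6 had an interaction of 2.59 (SE 0.09, edgeR adjusted p = 2.6e-12): other fibroblasts of the controls held 141 and 147 CPM at E13.5 and 241 and 233 at E14.5, and Wnt-active cells went from below to above them. Rspo3, a secreted Wnt amplifier, crossed in the same way. It was at 39.4, 42.5, 87.0, 87.1, 36.9 and 78.7 CPM in Wnt-active cells and at 61.3, 48.3, 32.4, 27.2, 103 and 45.1 in other fibroblasts (interaction 2.07, edgeR adjusted p = 4.9e-08). Trps1, a zinc-finger repressor needed for hair, was at 11.0, 3.68, 45.4, 41.0, 18.1 and 43.1 CPM against 13.8, 7.59, 12.5, 12, 22.8 and 9.52 (interaction 2.39, edgeR adjusted p = 3.9e-08).

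Id1, an immediate target of BMP signalling, was at 126, 156, 163, 220, 99.3 and 182 CPM in Wnt-active cells and at 155, 250, 108, 128, 157 and 118 in other fibroblasts (interaction 1.22, edgeR adjusted p = 5.9e-07). It was the lower of the 2 sets in all E13.5 libraries and the higher in all E14.5 libraries. Of 17 BMP genes 5 had a positive interaction, Id1, Id2, Id3, Id4 and Smad7, and Bmp5 a negative one (median 0.59). Of 22 body-region factors 7 had a positive interaction and 0 a negative one (median 0.47), 5 of them posterior Hox genes. The Wnt feedback list went the other way, with 0 of 21 positive and 6 negative (median -0.44), Notum among them at -1.04 (edgeR adjusted p = 0.045). Without muscle-marker cells it had 0 positive and 4 negative (median -0.37), and Notum did not pass. The BMP list then had 3 positive and 1 negative, and the body-region list 6 and 1. Notum also lost the call at a threshold of 3 UMIs and when any single library other than E14.5 control replicate 1 was left out. Leaving out replicate 1 of the controls gave 612 genes in all for E13.5 and 675 for E14.5.

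The interaction with genotype passed for 158 of 14423 genes (1.10%), 115 with a positive value in LOF relative to control (0.797%) and 43 with a negative one (0.298%). In several, the level in other fibroblasts of the LOF libraries was low. Lix1 had an interaction of 1.67, with other fibroblasts at 8.15 and 19.7 CPM in LOF and 48.1 to 77.2 in the controls, and Serpinc1 one of 1.56, with 0.963 and 4.37 against 6.28 to 29.5. Twist2 had one of 0.45 and Tcf7 one of 1.07. For Pdgfa, in contrast, other fibroblasts held 23.1 and 23.9 CPM in LOF against 17.2 to 34.2 in the controls, and the Wnt-active cells of E13.5 LOF stood apart (interaction 1.83, edgeR adjusted p = 8.2e-05). Rspo3 and Wnt11 had interactions of -0.85 and -0.74. Without muscle-marker cells Lix1, Twist2 and Wnt11 no longer passed, and Serpinc1, Tcf7, Pdgfa and Rspo3 still did. Of the 17 calls examined for this interaction 10 were kept. An alternative left out cells with another lineage's markers or among the top 5% of UMIs. There Pdgfa, Rspo3 and Wnt11 no longer passed, and Lix1, Serpinc1, Twist2 and Tcf7 did.

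Msc also passed, with an interaction of 1.46, and did not without muscle-marker cells. It was at 77.9, 23.3, 16.4, 11.8, 255 and 27.1 CPM in Wnt-active cells and at 21.5, 7.64, 17.8, 7.22, 27.7 and 9.14 in other fibroblasts, so that its level was led by the library with the largest share of muscle-marker cells. Without those cells the count of genes was 105. Leaving out the LOF library gave 58 genes for E13.5 and 374 for E14.5, and leaving out replicate 1 of the E14.5 controls gave 85.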

How the data were processed

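Counts of UMIs for each gene in each barcode, not normalized, were deposited by the authors for 6 droplet libraries read from the 3′ side of transcripts. Per the submitters' processing notes, Cell Ranger and Seurat were used against mm10 (GRCm38), with no versions given, and the rule by which barcodes were taken as cells is not given in the sources used here. Cells were gated as the report states, and doublets were not called: an alternative left out cells with at least 2 UMIs of another lineage's markers or among the top 5% of UMIs. The members and lists were chosen with earlier results of these data known.

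UMI counts were summed per library over Wnt-active and over other fibroblasts, without the 14 rule genes, and fitted with edgeR's quasi-likelihood test (TMM, filterByExpr, robust). Benjamini-Hochberg adjustment ran over every gene in a fit, with calls made below 0.05. The 4 fits were Wnt-active against other fibroblasts with library as a block, E14.5 against E13.5 in controls, LOF against control with stage as a covariate, and the interactions of the first difference with stage and genotype. SE of a log2 difference was derived from it and its F statistic. Levels (CPM) are a set's summed counts scaled to a common total, a scale without a length term, so they were compared within genes. Genes named by rule were the 12 largest changes per direction that had the same sign in each library and a mean log2 CPM of 5 or more. Others came from the lists, of which some genes are not reported here. The fits were tested on simulated data. Thinning drew 5000 UMIs per cell with seed 1 and left out 2384 shallower fibroblasts, which left 20210. Shares have exact (Clopper-Pearson) 95% binomial intervals, which cover counting error only, and differences of shares have intervals from the same counts. Total UMIs per library were 86446575, 56453704, 75280717, 53461986, 85095371 and 83303540 in library order, and member cells summed to far fewer in E13.5 LOF (173 cells) than elsewhere, so its values are the least precise. Alternatives were DESeq2, its size factors in edgeR, no filter on low counts, thresholds of 3 and 6 UMIs, matched or thinned depth, other-lineage cells left out, a replicate block, each library left out in turn and, added after the data were seen, muscle-marker cells left out. Gene positions are from GENCODE on GRCm38, promoter sequence from RefSeq on GRCm38.p6. Tools were R 4.3.3, edgeR 4.0.16, limma 3.58.1, DESeq2 1.42.0, Python 3.11.15, numpy 2.4.6, pandas 2.3.3, scipy 1.17.1 and matplotlib 3.10.9.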

Additional observations from a re-analysis of the deposited data

Results flagged for a closer look

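Genes whose difference between Wnt-active and other fibroblasts itself differed with stage or genotype by an interaction test (edgeR, adjusted p under 0.05) are given here as log2 interactions, for genes named from that comparison.

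At E14.5 the difference was larger in the positive direction for Ptch1 (1.55), Fgf10 (1.56), Gpc3 (0.79), Prrx2 (0.63), Rarg (0.60), Fgfr1 (0.52), Fzd2 (0.49), Ebf1 (0.49), Egr1 (0.32) and Ctnnb1 (0.26). For Ebf1, Gpc3, Fzd2, Fgf10 and Egr1, which were lower in Wnt-active cells, this means a smaller deficit at E14.5. The difference moved the other way for Dpp4 (-2.05), Bmp5 (-1.69), Stra6 (-1.59), Nrgn (-1.44), Tshz2 (-1.42), Casz1 (-1.20), Notum (-1.04), Clec3b (-1.03), Dact1 (-1.02), Serpinc1 (-0.90), Calb1 (-0.88), Col14a1 (-0.66), Irx5 (-0.50), Ptn (-0.34) and Bcl11b (-0.33). Without muscle-marker cells the stage calls of Casz1, Ebf1, Notum, Gpc3, Ctnnb1, Dpp4, Rarg and Col14a1 were lost. Nrgn, for example, was at 387 and 264 CPM in Wnt-active cells of the E13.5 controls and at 72.0 and 138 in those of E14.5, while other fibroblasts stood at 44.0, 27.8, 19.1 and 41.5.

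In LOF the difference was larger for Lix1 (1.67), Serpinc1 (1.56), Casz1 (1.17), Nog (1.12), Tcf7 (1.07), Calb1 (1.05), Nrgn (0.95), Wnt4 (0.79), Zic1 (0.66), Bcl11b (0.63), Twist2 (0.45) and Ptn (0.30), the last being a smaller deficit, and smaller for Wnt11 (-0.74). For Zic1, other fibroblasts were at 4.73 and 24.1 CPM in E13.5 LOF and E14.5 LOF against 28.6 to 60.8 in the controls. Without muscle-marker cells, which were 30.6% of the Wnt-active cells of E13.5 LOF, the calls of Lix1, Casz1, Nog, Zic1, Twist2 and Wnt11 were lost. Each LOF group is 1 library, and these calls rest on both.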

How the results depend on the processing

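Direction and call were kept under every alternative by 102 of 113 genes named between Wnt-active and other fibroblasts, 11 of 33 named between stages, 0 of 1 between genotypes, 14 of 38 in the stage interaction and 1 of 17 in the genotype interaction. The count of 93 stage genes became 518 with DESeq2, 159 with its size factors, 1478 with no filter on low counts, and 26 to 1552 with 1 library left out. The replicate block gave 1581; the labels do not tie same-numbered control libraries to a shared litter or day, so the block was not the reported fit, but the 2 pairs did deviate together, with a correlation of 0.293 over 12370 genes, and the replicate number also went with the share of cells holding eGFP. The genotype count of 1 became 15 with DESeq2, 98 without control replicate 2 of both stages, 132 with no filter and 0 without either LOF library. The stage interaction count of 1277 became 648 with DESeq2, 1959 with no filter and 612 to 1318 with 1 library left out. The genotype interaction count of 158 became 702 with no filter, 105 without muscle-marker cells and 58 to 374 with 1 library left out.

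Without cells of other lineages and of top UMIs, the genotype interaction was -1.69 for Msc and -0.46 for Ptn, and the stage interaction of Ptn was 0.0389. At a threshold of 6 UMIs the stage interaction of Clec3b was 0.21. Of these 4 reversed values only that of -0.46 passed the test. The causes were not tested. In library order, the share of Wnt-active cells was 30.9%, 26.2%, 43.4%, 32.0%, 5.87% and 14% at a threshold of 3 UMIs and 15.9%, 12.9%, 20.7%, 9.98%, 2.49% and 4.5% at 6. Thinned shares were 26.4%, 27.7%, 36.0% and 35.6% in the controls and 14.9% in E14.5 LOF. Without other-lineage and top UMI cells the shares were 27.4%, 20.6%, 41.2%, 25.5%, 3.47% and 11.9% in library order. Without muscle-marker cells the share in E13.5 LOF was 3.06%. Both LOF libraries were below both controls of their stage in each setting. The eGFP difference in points was 15.7 in thinned cells of E13.5 control replicate 2, 15.2 in thinned cells and 13.3 at 2 or more UMIs in E14.5 control replicate 2, and -0.0294 at 2 or more UMIs in E13.5 control replicate 1. In E14.5 LOF it was 5.52 before thinning, 8.56 at 2 or more UMIs and 2.41 in thinned cells.

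Limits are set by 1 LOF library per stage, depth that differs between the cell sets, and controls whose reporter transcripts differ between replicates. Another limit is the 173 Wnt-active cells in E13.5 LOF, 30.6% with muscle markers and 117 with markers of any other lineage, muscle included.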
